A study of Mus musculus with 9 samples.

Results

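Secreted antimicrobial proteins and lectins of the colonic epithelium were followed in 9 genes: the angiogenin-type ribonucleases Ang4, Ang2 and Ang, the resistin-like protein gene Retnlb, the intelectin Itln1, the mucosal pentraxin Mptx1, and the C-type lectins of the Reg family Reg3b, Reg3g and Reg4. The genes were chosen by their measured signals in these same arrays, so their levels and differences are given as description, without tests. Probes were matched to the 9 symbols through the RefSeq transcript named in the scanner files. Each gene had 1 probe, and the 9 genes stand against 17305 symbols with a named probe and 21094 features tested.

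The study asked which genes differ between mice on a high calcium diet and mice given the carcinogen 1,2-dimethylhydrazine (DMH) on a diet with less calcium. The RNA was that of colonic mucosa, labelled normal, and the mice were of the outbred ICR strain. DMH, which produces colon tumours in rodents, had been injected weekly for 20 weeks at 20 mg/kg, subcutaneously, in all 3 groups, so no group went without the carcinogen. The hCA-Notumor group was fed 3% calcium and had no tumours, the hCA-Tumor group was fed 3% calcium and had tumours, and the DMH group was fed 1.24% calcium. For the DMH group the label of tumour status reads control and no more. Each group had 3 arrays, 1 per sample, and nothing in the labels says that the samples came from separate mice, so a spread between arrays may be partly technical. The mice on high calcium were divided by whether tumours had formed, not by a treatment. Whole mucosa was measured, so fewer cells of a type and less RNA per cell cannot be told apart.

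Levels are log2 of the background-subtracted probe signal minus the 75th percentile of that array, so 0 is the upper-quartile signal and each unit is a 2-fold step. Between 61.1 and 73.8% of the 41174 probes were well above background per array, no spot was saturated, and all 9 genes were well above background on all 9 arrays. Slide 1 held the 3 hCA-Notumor arrays and DMH replicate 1, slide 2 held hCA-Tumor replicates 1 and 2 and DMH replicates 2 and 3, and slide 3 held hCA-Tumor replicate 3. No slide held both high calcium groups. Epcam, the epithelial adhesion molecule and 1 of 6 epithelial markers tested, was well above background on every array. It differed from DMH by -0.01 ± 0.06 (SE) in hCA-Notumor and by 0.00 ± 0.06 in hCA-Tumor, on the log2 scale. The list was less level than Epcam. By limma's adjusted test against DMH, 2 of the 6 were higher in hCA-Notumor and 1 in hCA-Tumor, with 0 lower in either. The median differences of the 6 were 0.07 and 0.13. Epcam alone thus does not show equal epithelial content.

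The colonic epithelium keeps bacteria at a distance with mucus and with proteins secreted into it. Goblet cells, and deep crypt secretory cells beside the stem cells, release angiogenins, resistin-like molecule beta, intelectins and Reg4. Reg3 lectins bind bacterial cell walls and are made by enterocytes and Paneth cells, typically after microbial signals and interleukin 22, which acts through STAT3. Resistin-like molecule beta and intelectins are also known to respond to interleukins 4 and 13 through STAT6.

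Across the arrays the 9 genes did not move as 1 block. Ang4, Ang2, Itln1 and Mptx1 were lowest on all 3 hCA-Tumor arrays, by 5.41- to 12.4-fold against DMH. Retnlb was lowest in hCA-Tumor and highest in hCA-Notumor. Reg3b and Reg3g were highest in DMH. Reg4 was highest in hCA-Notumor, and Ang had 1 hCA-Tumor array that stood apart from the other two.

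**Figure D1:**
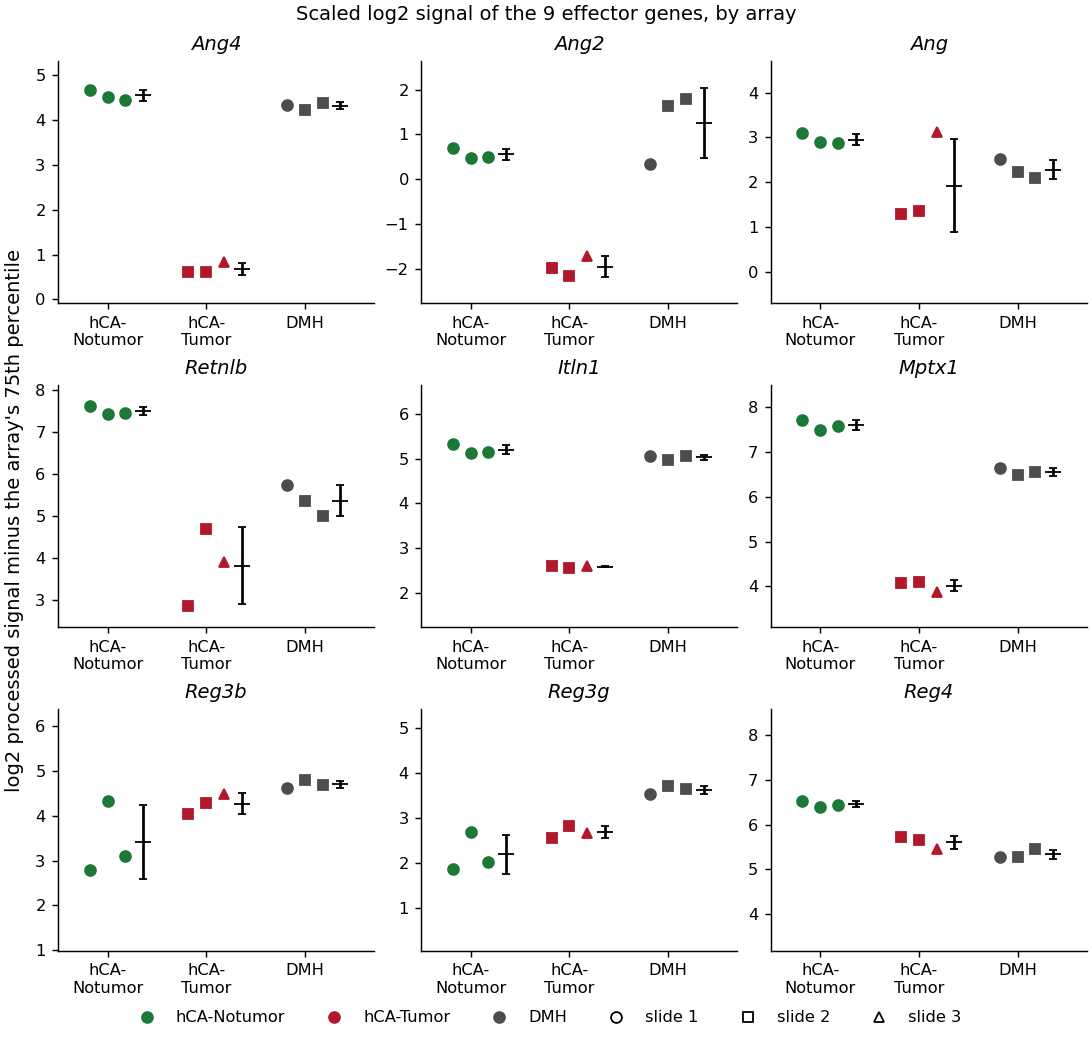
Each panel plots 1 gene, with the scaled log2 signal on the vertical axis (each panel has its own range) and the groups on the horizontal axis. Points are single arrays, their shape gives the slide, and the bar beside each group is the mean ± SD over 3 arrays. The hCA-Tumor arrays of Ang4 lie between 0.61 and 0.83, while all hCA-Notumor and DMH arrays lie between 4.23 and 4.68.

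Ang4 encodes a bactericidal ribonuclease of intestinal secretory cells. Its scaled log2 signal was 4.68, 4.52 and 4.46 in hCA-Notumor, 0.61, 0.61 and 0.83 in hCA-Tumor and 4.35, 4.23 and 4.38 in DMH. The hCA-Tumor arrays were far below all others, and the lowest hCA-Notumor array was just above the highest DMH array. The hCA-Tumor mean, 0.68 ± 0.13 (SD, n = 3), was 12.4-fold below the DMH mean of 4.32 ± 0.08 (difference -3.64 ± 0.09, SE from the fit over 9 arrays). Against hCA-Notumor (4.55 ± 0.12) it was 14.6-fold lower. The difference between hCA-Notumor and DMH was 0.23 ± 0.09, which shrank to 0.04 in the log2 table that the authors deposited for the series.

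Itln1 encodes intelectin 1, a lectin that binds sugars of microbial surfaces. Its values were 5.32, 5.13 and 5.15 in hCA-Notumor, 2.60, 2.57 and 2.61 in hCA-Tumor and 5.07, 4.96 and 5.05 in DMH. Here too the hCA-Tumor arrays formed a tight low group, with a mean of 2.59 ± 0.02 (SD, n = 3) against 5.03 ± 0.06 in DMH, a 5.41-fold difference (-2.44 ± 0.06). The gap between hCA-Notumor and DMH was 0.17 ± 0.06, and its direction turned to -0.02 in the authors' deposited log2 table. No order of hCA-Notumor and DMH is read for Itln1.

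Mptx1 encodes a mucosal pentraxin, a secreted relative of C-reactive protein that is abundant in rodent colon. The arrays gave 7.71, 7.49 and 7.57 in hCA-Notumor, 4.08, 4.09 and 3.88 in hCA-Tumor and 6.64, 6.48 and 6.55 in DMH. The 3 groups were fully separated, in the order hCA-Notumor, DMH, hCA-Tumor. Mptx1 was 5.81-fold lower in hCA-Tumor than in DMH (-2.54 ± 0.09) and 2.06-fold higher in hCA-Notumor than in DMH (1.04 ± 0.09), and 12.0-fold apart between the high calcium groups.

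Ang4, Itln1 and Mptx1 moved together over the 9 arrays, with Pearson's r of 0.999 for Ang4 and Itln1, 0.97 for Ang4 and Mptx1 and 0.973 for Itln1 and Mptx1. These coefficients describe 9 arrays in 3 groups on shared slides and the low hCA-Tumor group stands apart in each. The 200 bases before the transcription start of these genes are shown because the genes moved together. They come from RefSeq's table on GRCm38.p6, which holds 7 of the 9 genes and not Ang2 or Retnlb. Ang4 lies at chr14:51773591-51773790, minus strand, Itln1 at chr1:171535295-171535494, minus strand and Mptx1 at chr1:174330318-174330517, plus strand, each written 5′ to 3′ toward the start. Capitals mark matches, on either strand, to 4 motifs: TATAAA (the TATA box), TTCNNNGAA (the STAT site), TTTATG (the CDX site) and TGACTCA (the AP-1 site).
Ang4: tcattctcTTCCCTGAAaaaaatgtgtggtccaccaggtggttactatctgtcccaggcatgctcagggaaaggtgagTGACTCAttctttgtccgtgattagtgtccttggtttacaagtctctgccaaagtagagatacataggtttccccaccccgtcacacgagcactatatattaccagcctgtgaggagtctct
Itln1: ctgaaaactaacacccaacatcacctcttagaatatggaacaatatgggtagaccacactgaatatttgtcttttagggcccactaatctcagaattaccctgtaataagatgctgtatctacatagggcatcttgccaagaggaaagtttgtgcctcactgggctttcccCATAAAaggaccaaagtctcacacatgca
Mptx1: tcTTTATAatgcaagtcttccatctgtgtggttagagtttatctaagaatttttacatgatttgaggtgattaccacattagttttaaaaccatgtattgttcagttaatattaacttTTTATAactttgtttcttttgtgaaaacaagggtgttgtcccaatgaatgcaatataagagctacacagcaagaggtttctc

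Ang4 had a STAT match 192 to 184 bases before the start and an AP-1 match at 122 to 116. Itln1 had a CDX match at 29 to 24, read on the minus strand of the gene. Mptx1 had TATAAA on that opposite strand at 198 to 193 and again at 82 to 77. Of 32851 windows of the same length, 9.96% held the TATA motif, 5.49% the STAT motif, 8.51% the CDX motif and 3.66% the AP-1 motif. No motif was present in all 3 windows, and pairwise identity of the aligned windows was 45.4 to 49.3%. The windows of Ang and Reg4 held none of the 4 letter strings. A match or its absence is a statement about letters in this window.

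Ang2 encodes a rodent relative of angiogenin in the same ribonuclease family. Its signal was 0.70, 0.47 and 0.50 in hCA-Notumor, -1.98, -2.16 and -1.71 in hCA-Tumor and 0.35, 1.63 and 1.79 in DMH. The hCA-Tumor arrays were again below all others, 9.21-fold under DMH in the mean (-3.20 ± 0.35, and 6.23-fold with normexp background correction, which damps low signals), while DMH replicate 1, the DMH array on slide 1, was below every hCA-Notumor array. The difference between hCA-Notumor and DMH was therefore -0.70 ± 0.35 over all arrays, 0.21 ± 0.13 within slide 1 and -1.15 ± 0.14 without DMH replicate 1. Its direction is not settled by these arrays.

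Ang encodes angiogenin itself, a secreted ribonuclease of many tissues. Its signal was 3.09, 2.89 and 2.87 in hCA-Notumor, 1.29, 1.36 and 3.12 in hCA-Tumor and 2.51, 2.23 and 2.09 in DMH. Replicate 3 of hCA-Tumor, alone on slide 3, was above every other array, and replicates 1 and 2 were below every other array. The difference from DMH in hCA-Tumor was -0.35 ± 0.45 with all arrays and -0.95 ± 0.13 without replicate 3. In hCA-Notumor all 3 arrays were above all DMH arrays, by 0.68 ± 0.45 in the mean and by 0.44 ± 0.11 within slide 1.

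The RNase A family lies together on mouse chromosome 14, where RefSeq's table lists 18 such genes, and relatives with a measured probe serve to place the 3 angiogenins. Between Ang and Ang2 in gene order lie Rnase6 and Rnase1. Rnase1, the pancreatic-type secreted ribonuclease, gave -3.97, -3.62 and -4.25 in hCA-Notumor, -1.05, -1.08 and -1.05 in hCA-Tumor and -1.96, -2.43 and -1.91 in DMH. It was thus highest where Ang2 and Ang4 were lowest: 2.06-fold higher in hCA-Tumor than in DMH (limma, adjusted p = 0.0043) and 3.60-fold lower in hCA-Notumor (adjusted p = 0.00034), although with normexp these became 1.70-fold (adjusted p = 0.0397) and 1.61-fold (adjusted p = 0.0615). Rnase6, a macrophage-associated ribonuclease, differed by -0.05 ± 0.07 in hCA-Tumor (adjusted p = 0.64). Ang6 was 2.78-fold lower in hCA-Tumor than in DMH (adjusted p = 0.002) and Rnase4, whose gene neighbours Ang, was 1.99-fold lower (adjusted p = 7.8e-05). Rnh1, the cytosolic inhibitor that binds these ribonucleases, differed by -0.15 ± 0.05 there (adjusted p = 0.051). The angiogenins are close relatives, and as probe sequences were not used here, signal shared between them cannot be separated.

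**Figure D2:**
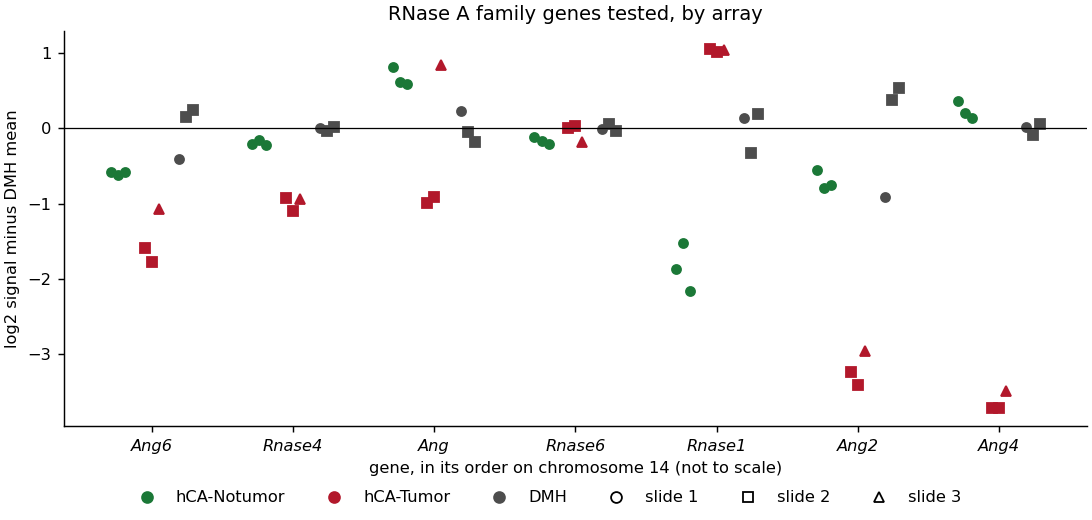
The vertical axis gives each array's scaled log2 signal minus the DMH mean of that gene. The horizontal axis lists 7 ribonuclease genes in their order on chromosome 14 without scale, and not every tested gene of the family is drawn. Points are single arrays, coloured by group and shaped by slide. The hCA-Tumor arrays lie low for Ang4, Ang2, Ang6 and Rnase4 and high for Rnase1, and for Ang replicate 3 of hCA-Tumor lies apart from replicates 1 and 2.

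Retnlb encodes resistin-like molecule beta, a goblet cell protein that kills bacteria. It measured 7.63, 7.44 and 7.46 in hCA-Notumor, 2.87, 4.70 and 3.92 in hCA-Tumor and 5.74, 5.37 and 5.0 in DMH. The groups did not overlap, although the hCA-Tumor arrays spread over nearly 2 units. Its mean was 4.39-fold higher in hCA-Notumor than in DMH (2.14 ± 0.42), 2.92-fold lower in hCA-Tumor than in DMH (-1.54 ± 0.42) and 12.8-fold apart between the high calcium groups. Within slides these differences were 1.77 ± 0.64 and -1.40 ± 0.56.

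Reg4 encodes a C-type lectin of goblet, endocrine and deep crypt secretory cells. The hCA-Notumor arrays gave 6.54, 6.40 and 6.44, the hCA-Tumor arrays 5.72, 5.65 and 5.45 and the DMH arrays 5.29, 5.28 and 5.46. All hCA-Notumor arrays were above all others, while 1 hCA-Tumor array lay below 1 DMH array. Reg4 was 2.17-fold higher in hCA-Notumor than in DMH (1.12 ± 0.09) and 1.20-fold higher in hCA-Tumor than in DMH (0.27 ± 0.09). It was the only one of the 9 genes higher in the means of both high calcium groups than in the mean of DMH.

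Reg3b and Reg3g, bactericidal lectins from a gene cluster on chromosome 6, had the opposite order. Reg3g was 1.86, 2.69 and 2.03 in hCA-Notumor, 2.55, 2.82 and 2.67 in hCA-Tumor and 3.53, 3.71 and 3.65 in DMH. All DMH arrays were above all high calcium arrays, with fold differences of 2.71 for hCA-Notumor (-1.44 ± 0.20) and 1.93 for hCA-Tumor (-0.95 ± 0.20). Reg3b was 2.79, 4.34 and 3.10 in hCA-Notumor, 4.03, 4.29 and 4.49 in hCA-Tumor and 4.62, 4.79 and 4.68 in DMH. DMH was again on top, 2.44-fold above hCA-Notumor (-1.29 ± 0.36) and 1.35-fold above hCA-Tumor (-0.43 ± 0.36).

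Replicate 2 of hCA-Notumor carried the highest signal of its group for both lectins. Without it, the difference from DMH was -1.75 ± 0.15 for Reg3b and -1.69 ± 0.10 for Reg3g. The same array was highest of its group for Reg3a, a further Reg3 lectin, at -1.99 against -7.84 and -5.91, the former not well above background. Its summed signal of 6 small intestinal markers was 1.86 times the array's 75th percentile, against 1.05 and 1.23 in replicates 1 and 3, and 1.54 to 1.95 in DMH. The sums of hCA-Tumor replicates 1, 2 and 3 were 0.984, 0.991 and 1.73. Replicates 1 and 2 of hCA-Tumor nevertheless had Reg3b at 4.03 and 4.29, above hCA-Notumor replicates 1 and 3. Alpi had the highest mean of the 6 markers in every group. The part of that marker signal in the Reg3 values was not tested.

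The windows before Reg3b (chr6:78370685-78370884, plus strand) and Reg3g (chr6:78468875-78469074, minus strand) are shown because this pair shared its order and its odd array. Capitals mark the same motifs as above.
Reg3b: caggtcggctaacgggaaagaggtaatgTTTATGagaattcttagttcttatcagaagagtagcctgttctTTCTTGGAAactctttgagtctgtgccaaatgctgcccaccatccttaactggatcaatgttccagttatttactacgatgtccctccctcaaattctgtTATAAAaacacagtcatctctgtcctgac
Reg3g: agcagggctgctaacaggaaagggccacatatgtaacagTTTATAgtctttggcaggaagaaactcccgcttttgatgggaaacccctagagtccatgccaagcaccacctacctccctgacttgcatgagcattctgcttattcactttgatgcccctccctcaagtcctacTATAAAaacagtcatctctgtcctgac

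Both windows held TATAAA shortly before the start, at 29 to 24 bases in Reg3b and 27 to 22 in Reg3g. Reg3b also held a STAT match at 129 to 121 and a CDX match at 172 to 167, and Reg3g a second TATA match on the opposite strand at 161 to 156. The 2 windows were identical at 137 aligned bases, or 67.5%, against 43.7 to 50.5% for the other pairs of the 7 genes. Signal shared between these related transcripts cannot be separated here either.

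Past limma's threshold of an adjusted p of 0.05, and counted here only as description because the choice of genes used these contrasts, were 3 of 9 genes higher (Retnlb, Mptx1, Reg4) and 2 lower (Reg3b, Reg3g) in hCA-Notumor than in DMH, where 18.4% and 16.9% of all features tested were higher and lower. In hCA-Tumor against DMH, Reg4 was higher and 6 genes were lower (Ang4, Ang2, Retnlb, Itln1, Mptx1, Reg3g), beside 22% and 15% of all features. Between the high calcium groups 6 genes were higher in hCA-Notumor and 0 lower, beside 19.8% and 27.6%. When the high calcium groups were averaged and set against DMH, 1 was higher and 5 lower, beside 18.3% and 12.9%. A difference of at least 4-fold was seen in 4 of 9 genes lower in hCA-Tumor than in DMH, beside 0.503% of all features, and in 5 of 9 higher in hCA-Notumor than in hCA-Tumor, beside 0.706%. In 4 of 9 genes (Ang4, Retnlb, Itln1, Mptx1) all hCA-Notumor arrays lay on one side of every DMH array and all hCA-Tumor arrays on the other, beside 10.2% of all features. Nothing is read from these shares. The authors' deposited table, centred on the median of all probes, turned the balance of calls toward lower: 977 higher of 3339 for hCA-Notumor, where the scaling used here gave 3889 of 7460, 950 of 2403 for hCA-Tumor, against 4642 of 7811, and 649 of 2144 for the averaged groups, against 3863 of 6580.

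The median difference of the 9 genes was 0.23 in hCA-Notumor and -1.54 in hCA-Tumor against DMH, where the medians of all features were 0.08 and 0.09 (-0.14 and -0.06 in the authors' deposited table). Both comparisons use the same DMH arrays. Some of the calls rested on single arrays or settings. The Retnlb call in hCA-Tumor ended with the slide or the replicate number as a block, with only the compared groups in the fit, and without DMH replicate 1 or 2 (-1.36 and -1.54), and its call in hCA-Notumor ended with the slide as a block (1.77). The Reg3b call in hCA-Notumor ended with the slide as a block, and without any DMH replicate or hCA-Notumor replicate 1 or 3 (-0.98 to -1.32). The Reg4 call in hCA-Tumor ended with each other scaling (0.13 to 0.27 over the alternatives that ended it) and without any array but hCA-Tumor replicate 3 or DMH replicate 3. With all arrays Ang passed in none of the comparisons. It passed in all 3 pairwise ones without hCA-Tumor replicate 3, the array already seen to stand apart, and this is description only.

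**Figure D3:**
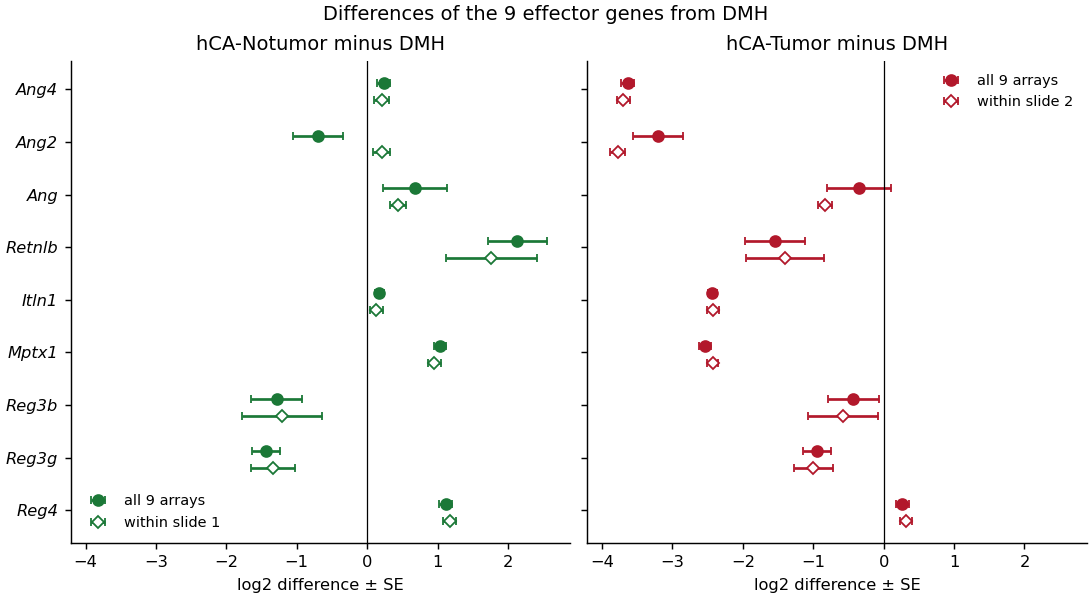
The horizontal axes give the log2 difference from DMH with its standard error for hCA-Notumor (left) and hCA-Tumor (right), 1 row per gene. Filled circles use all 9 arrays, and open diamonds give the difference within slide 1 or slide 2. The standard error of a diamond comes from a fit of all 9 arrays by group and slide. Within slides the values for Ang4, Itln1 and Mptx1 are close to those of all arrays (-3.70, -2.42 and -2.43 in hCA-Tumor), while Ang2 in hCA-Notumor moves from -0.70 to 0.21.

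For each gene, the symbols whose signal followed it most closely over the 9 arrays were found by Pearson's r among all tested symbols outside the 9. Ang4 was closest to Pdcl, Idh2 and Ints10 (r of 0.996, 0.996 and 0.994), and Itln1 to the same 3 symbols. Mptx1 was closest to Chtf8, Arl1 and Chmp6 (0.997, 0.996 and 0.995). Ang2 was closest to Areg, Ipo9 and Slc22a29 (0.996, 0.982 and 0.981), and Ang to Adora2a and Diaph1 (0.994 and 0.992). Retnlb was closest to 2310034C09Rik, H1f3 and Nfkbid (0.990, 0.984 and 0.978). Reg4 was closest to Inpp4b, Bmp2 and Capn9 (0.998, 0.991 and 0.990). Reg3b was closest to Slc17a4, Vnn1 and Lrp12 (0.974, 0.972 and 0.964), and Reg3g to Pnpla3, Bcl2l15 and Fam174a (0.985, 0.983 and 0.983). These are the highest values among all symbols searched, over 9 arrays that share slides and groups, and they carry no test.

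Other genes of the same families and pathways were listed by role, 101 in all, of which 66 were tested. Among them 15 rose and 23 fell in hCA-Notumor against DMH, and 15 rose and 22 fell in hCA-Tumor against DMH. In the authors' deposited table, which held 55 of them, 2 rose and 14 fell, and 5 rose and 9 fell. With quantile normalization of all 66, 10 rose and 24 fell, and 12 rose and 23 fell. Other secreted antimicrobial proteins accounted for 6 rises and 8 falls among 19 in hCA-Notumor, with a median difference of -0.09, and 4 rises and 8 falls in hCA-Tumor, with a median of -0.12. Like Reg3b and Reg3g, Lcn2, the siderophore-binding lipocalin, was highest in DMH: it was 16.3-fold lower in hCA-Notumor (adjusted p = 7e-06) and 3.39-fold lower in hCA-Tumor (adjusted p = 0.00031), or 3.81- and 2.17-fold with normexp. Lactoferrin (Ltf) was 7.17- and 4.77-fold lower, and the calprotectin subunit S100a9 was 11.8- and 6.17-fold lower, with adjusted p from 2.1e-06 to 0.00041. With normexp Ltf was 1.88- and 1.70-fold lower (adjusted p = 0.0202 and 0.036) and S100a9 7.83- and 5.06-fold. Ltf was well above background on 2 of 3 hCA-Notumor arrays.

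Of 10 other soluble lectins tested, 3 rose and 1 fell in hCA-Notumor, and 5 rose and 2 fell in hCA-Tumor. Zg16, a goblet cell lectin that binds Gram-positive bacteria, rose in both, by 0.53 ± 0.09 and 0.48 ± 0.09 (adjusted p = 0.0036 and 0.0052), while the authors' deposited table gave 0.34 and 0.34 (adjusted p = 0.236 and 0.28). Its hCA-Tumor arrays were thus not low as those of Itln1 were. Ptx3, a long pentraxin related to Mptx1, was well above background on the hCA-Tumor arrays alone, where it was at least 4.22-fold above DMH (adjusted p = 0.00028, and 0.0601 with normexp). Mptx1 was lowest on those arrays. Of 5 Reg and resistin relatives, 0 rose and 2 fell in each group: Retn, the adipocyte resistin, by 10.8- and 9.14-fold (adjusted p = 0.0075 and 0.0093), and Retnlg, a resistin relative of blood-forming cells. The Retn folds were 3.27 and 2.86 with normexp, and 18.2 in hCA-Tumor with a slide block. That fit takes nothing from hCA-Tumor replicate 3, the one array on its slide, which was at -2.13 against -4.95 and -4.82 for the other hCA-Tumor arrays. Retnlg was at least 1.68-fold lower in hCA-Tumor (adjusted p = 0.00035). It was well above background on 1 of 3 hCA-Notumor arrays, so no fold is given there (adjusted p = 0.00068), and with normexp it passed in neither group (adjusted p = 0.711 and 0.638). Retn moved with adipocyte markers, whose summed signal of 4 genes was 31.8 to 35.2 in DMH, 4.1 to 6.99 in hCA-Notumor and 7.78 to 11.9 in hCA-Tumor.

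Ligands, receptors and signal transducers that act on these effectors came next. Of 8 ligands tested, 0 rose and 3 fell in hCA-Notumor, namely Il23a, Il33 and Il1b by 2.94-, 2.79- and 2.14-fold (adjusted p of at most 0.00063, with Il23a well above background on 2 of the 3 arrays), and the same 3 fell in hCA-Tumor while Il18 rose 1.34-fold (adjusted p = 0.0043). With normexp Il23a passed in neither group (adjusted p = 0.29 and 0.585) and Il33 in hCA-Notumor only (adjusted p = 0.000576 and 0.218). Il22, the inducer of Reg3 lectins, was well above background on all 3 DMH arrays, on 1 hCA-Tumor array and on 0 hCA-Notumor arrays, and did not pass the test in either group (adjusted p = 0.115 and 0.0882). Il4 and Il13, which induce Retnlb, did not pass either (adjusted p of 0.359 to 0.94 against DMH). Of 12 receptors, 3 rose and 5 fell in hCA-Notumor and 4 rose and 3 fell in hCA-Tumor, with Il1rl1, the receptor of interleukin 33, 3.67- and 4.16-fold lower (adjusted p = 4.9e-05 and 7.6e-05). Of 6 signal transducers, Socs3, a target and inhibitor of STAT3 signalling, was 1.97- and 1.71-fold lower (adjusted p = 9.2e-05 and 0.00034). Stat3 itself was 1.32-fold higher in hCA-Notumor (adjusted p = 0.0056). In the authors' deposited table Socs3 passed in both groups (adjusted p = 0.000268 and 0.00242). There the Stat3 rise in hCA-Notumor did not pass (0.21, adjusted p = 0.406), nor did the Il18 rise in hCA-Tumor (0.28, adjusted p = 0.352).

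Markers of cell types and position moved with some of these results, and their part in them was not tested. Goblet cell markers (10 of 11 tested, all well above background) summed to 1810 to 1900 in hCA-Notumor, 1390 to 1690 in hCA-Tumor and 1340 to 1470 in DMH, in units of the array's 75th percentile. In hCA-Tumor, where Ang4, Itln1, Mptx1 and Retnlb were low, 3 of the 10 rose against DMH and 5 fell, with a median of -0.21. The secreted products Tff3, Zg16 and Spink4 rose by 0.46, 0.48 and 0.45, while Clca1 fell by 0.30 and the transcription factors Spdef, Atoh1, Foxa3 and Creb3l1 fell by 1.08, 0.69, 0.39 and 0.30 (adjusted p of 0.00037 to 0.042). In hCA-Notumor 7 of the 10 rose and 0 fell, with a median of 0.43. The authors' deposited table kept the signs of both medians (0.24 and -0.35) but called 1 rise and 0 falls in hCA-Notumor and 0 rises and 2 falls in hCA-Tumor.

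Epithelial markers summed to 978 to 1040 in hCA-Notumor, 910 to 973 in hCA-Tumor and 804 to 922 in DMH, and the ranges of hCA-Tumor and DMH overlapped. Paneth cell markers (3 of 7 tested) summed to 15.4 to 17.1, 19.9 to 20.5 and 37.2 to 39.4, highest in DMH as were Reg3b and Reg3g. Of these 3, Defa3 and Mmp7 fell in both high calcium groups and Lyz1 did not pass the test. The Lyz1 signal was 3.53 to 3.81 in hCA-Tumor and 3.58 to 3.99 in DMH. The sum of neutrophil markers (4 of 6 tested) had the same order as the Paneth sum, at 0.311 to 0.364, 0.542 to 0.641 and 3.12 to 3.3. This list includes S100a8 and S100a9, which had the highest means of the 4 in DMH. Itgam had group means of -4.62, -4.95 and -3.98, lower in hCA-Tumor than in hCA-Notumor. Csf3r had means of -4.22, -4.14 and -3.22. All 4 fell against DMH in both high calcium groups. Plasma cell markers (3 of 3 tested) were 66.9 to 70.5, 41.5 to 51.9 and 62.7 to 69.7, low in hCA-Tumor as were Ang4 and Itln1. Smooth muscle markers (5 of 5 tested) were 297 to 371, 425 to 537 and 167 to 275. Mast cell markers (5 of 6 tested) were 2.54 to 2.88, 1.98 to 2.2 and 6.69 to 8.85. Pancreatic acinar markers, of a tissue that also makes Reg3 lectins, were 0.678 to 0.746, 0.335 to 1.5 and 0.33 to 0.974.

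Posterior Hox genes, whose levels mark position along the colon, also differed. Hoxd10, Hoxd11 and Hoxd13 rose in hCA-Tumor by 1.45 ± 0.17, 0.92 ± 0.23 and 1.32 ± 0.19 (adjusted p = 0.00076, 0.017 and 0.0017). The Hoxd11 rise did not pass with quantile normalization (0.80, adjusted p = 0.0564) or in the authors' deposited table (0.78, adjusted p = 0.0579). Hoxa13 and Hoxb13 rose in hCA-Notumor by 0.95 ± 0.11 and 1.05 ± 0.11 (adjusted p = 0.0006 and 0.00042). In hCA-Notumor Hoxd11 fell by 0.74 (adjusted p = 0.0408, but 0.423 with a slide block and 0.207 with normexp), and Hoxd10 and Hoxd13 were at -0.47 and -0.24 without passing the test (adjusted p = 0.0648 and 0.336). The labels do not say from which stretch of the colon each sample was taken.

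**Figure D4:**
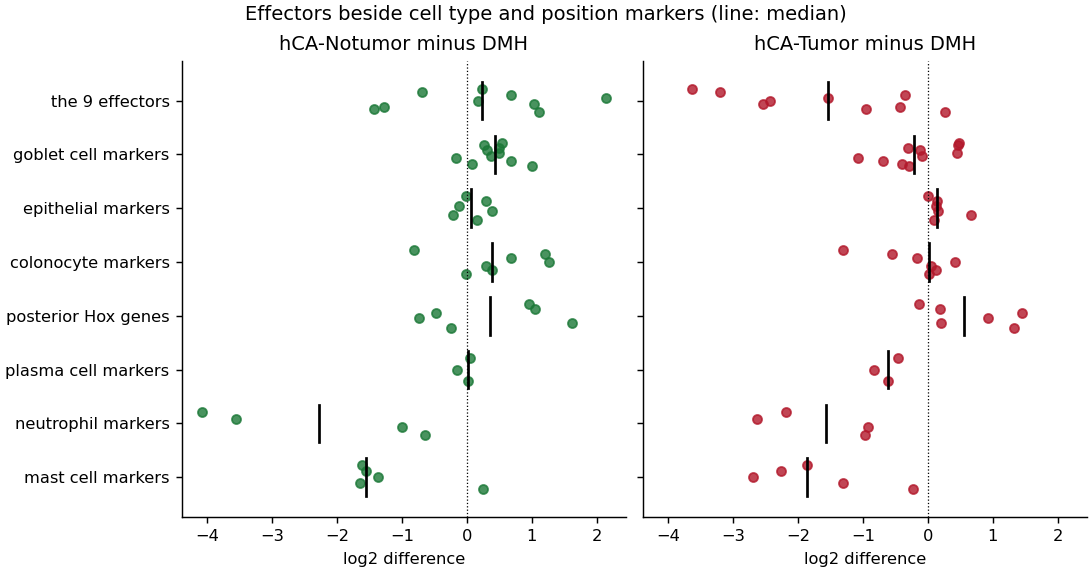
Each point is 1 gene, placed by its log2 difference from DMH in hCA-Notumor (left) or hCA-Tumor (right), in rows for the 9 effectors and for 7 marker lists, and the vertical line is the row's median. In hCA-Tumor the effectors have a median of -1.54 and the goblet cell markers one of -0.21, with the epithelial markers at 0.13.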

How the data were processed

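RNA of 9 colonic mucosa samples was measured on 9 Agilent 1-colour arrays (design 014868). The deposited scanner files hold, per the file headers, background-subtracted green intensity values from Feature Extraction (10.5.1.1 per the submitters' processing notes). The authors' deposited table of log2 values was found to equal log2 of the processed signal minus the array's median, and its column medians were 2.36 to 2.8. It served as an alternative.

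From the intensities, log2 minus each array's 75th percentile (534 to 773.9) was computed, without control and outlier spots. A probe was kept if any group had it well above background on each of its 3 arrays (27207 of 41174). Of all 41174 probes, 25097 were named with 1 symbol by transcript through RefSeq's table of GRCm38.p6 and 16077 stayed unnamed, and the brightest kept probe stood for each symbol, leaving 21094 features. One limma model (3.58.1, R 4.3.3) of all 9 arrays used lmFit, then eBayes, and Benjamini-Hochberg adjustment at 0.05 per contrast. The fit was tested on simulated data. A gene dim on a whole group is given as at least N-fold: the bright group's mean against, per dim array, the higher of its own signal and the lowest signal well above background. The number of arrays limits the precision.

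The members, gene lists and the rule for named genes (the 9 members, up to 4 genes past the threshold per list and contrast, marker lists, and the 3 most alike symbols per member) were chosen with earlier results of these data known. One symbol that met the rule is not reported here. Alternatives were normexp (offset 50), quantile normalization, the authors' table, other filters, the mean of a gene's probes, a trended and robust prior, only the compared groups, slide or replicate blocks, an unadjusted threshold and each array left out.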

Additional observations from a re-analysis of the deposited data

Results flagged for a closer look

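For 4 of the 9 members and 6 of the 35 related genes named by the rule, the hCA-Notumor arrays all lay on one side of every DMH array and the hCA-Tumor arrays all on the other, as they did for 10.2% of all features tested. For the members the difference between the effects is a description. For the related genes it equals the difference hCA-Notumor minus hCA-Tumor, which passed limma's test in all 6 (adjusted p from 3.14e-05 to 0.00121). These 6 were picked by that separation in the same arrays, so passing adds no support. That contrast passed in 9998 of 21094 features, and the high calcium groups shared no slide. The log2 difference hCA-Notumor minus hCA-Tumor was 3.87 for Ang4 (0.23 and -3.64 against DMH), 3.68 for Retnlb (2.14 and -1.54), 2.61 for Itln1 (0.17 and -2.44) and 3.58 for Mptx1 (1.04 and -2.54). The same pattern held in related genes, with 0.35 for Rnh1, the ribonuclease inhibitor, 0.69 for Fcna, a ficolin, and 0.75 for Ticam1, a Toll-like receptor adaptor. It was turned the other way for Rnase1 at -2.89, Lgals2, a galectin, at -1.36, and Ptx3 at -3.92, whose signal was not well above background in hCA-Notumor or DMH, so that its value is not a bound. The hCA-Notumor side of Ptx3 is thus an order of dim signals (-0.57 against DMH, adjusted p = 0.161). With normexp it turned to 0.0881 (adjusted p = 0.824). For Ang4 and Itln1 the step on the hCA-Notumor side was 0.23 and 0.17, beside a median of 0.08 over all features. In the authors' deposited table these steps were 0.04 and -0.02, and that of Rnh1 was 0.0086. From the scanner intensities, the hCA-Tumor difference of Rnh1 from DMH did not pass the test (adjusted p = 0.0512).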

How the results depend on the processing

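No past-threshold difference of the 9 members changed sign under the alternatives run. Of their 729 values, 700 moved by less than the spread between arrays and 29 by more. The filters, the mean of probes, the prior, the compared groups and the replicate block could not move these values. Leaving out 1 array could not shift a group mean by more than that spread. All 29 came from normexp, quantile normalization, the authors' table, the slide fits and the fit without both hCA-Tumor replicate 3 and DMH replicate 1. Features past the threshold numbered 6580 for the averaged high calcium groups against DMH, 7460 for hCA-Notumor and 7811 for hCA-Tumor against DMH, and 9998 between the high calcium groups. In that order they became 3202, 3842, 4151 and 6160 with normexp, 2144, 3339, 2403 and 4783 in the authors' deposited table, and 639, 1360, 894 and 1677 with an unadjusted threshold of 0.05 plus a 2-fold change. Leaving out 1 array gave 4230 (without DMH replicate 3) to 7444 for the first. Without hCA-Tumor replicate 3 and DMH replicate 1 together, an alternative chosen after seeing the data, it gave 9906, and 12691 for hCA-Notumor against DMH. Related genes past the threshold, 34, 38, 37 and 34 of 66, became 16, 16, 14 and 17 of 55 in the authors' table, 13, 13, 14 and 7 with the unadjusted threshold, and 24 for hCA-Tumor against DMH with normexp. The authors' table held fewer features, 18458 against 21094. With 18494 features, those well above background on all 9 arrays, 6526, 7275, 7739 and 9559 passed in the same order. The cause of the shifts in these counts was not tested. With the replicate number as a block, features past the threshold were 5171, 5922, 6427 and 8853. Numbers did not pair the arrays, as same-numbered arrays correlated at -0.56 to 0.219 in their deviations from group means, and not every array correlated best with its own number. Lgals4 for the averaged groups turned to -0.0041 under quantile normalization (adjusted p = 0.964). Stat6 turned to 0.18 (hCA-Notumor against DMH, adjusted p = 0.158) and 0.54 (between the high calcium groups, adjusted p = 0.00212) with the mean of its probes. Of the other named related values, 149 lost the threshold and 1649 kept it and their direction.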
